A study of Drosophila melanogaster with 13 samples.

Results

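The comparison described here sets testes of magn mutant flies against testes of WT flies, on 7 of the 13 Affymetrix arrays of a study of mutants whose germ cells arrest around meiosis. The 4 magn arrays hold 2 biological replicates of magn[12c]/magn[23b] and 2 of magn[12c]/magn[12c];pSC2, called the [12c]/[23b] and the pSC2 testes below, and the 3 WT arrays hold testes of flies titled red[1]/e[1](WT), a genotype that the design text writes as red[1], e[1] (WT). The labels do not say what pSC2 is. The other 6 arrays, 3 of aly[2]/aly[5p] and 3 of sa[1]/sa[2], were used to estimate the spread between replicates and for a direct comparison with magn. All flies were at most 1 day old after eclosion and were raised at 25 °C, and the testes were dissected away from seminal vesicles and accessory glands. The magn combinations share the [12c] allele, so they are not independent alleles, and no line labelled as a rescue of magn was analysed here.

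magn is the gene Ubi-p63E. A polyubiquitin gene encodes head-to-tail copies of ubiquitin, the small protein that is joined to other proteins to mark them for the proteasome or to change their activity, and enzymes cut the chain into single ubiquitins. Ubiquitin is also encoded by Ubi-p5E and, fused to a ribosomal protein, by RpS27A and RpL40. In the fly testis, spermatogonia divide by mitosis, spermatocytes grow and transcribe most of the genes that spermatids later use, and after meiosis spermatids elongate with little new transcription. The meiotic arrest genes aly (a subunit of the testis complex tMAC) and sa (a testis-specific TATA-binding-protein-associated factor, or testis TAF) are needed for that spermatocyte program and for entry into the meiotic divisions.

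Values are log2 expression after GCRMA normalization by the authors. A gene was represented by the probe set with its single symbol and the highest mean, and it was tested where that probe set lay above log2 4 in at least 3 of the 7 arrays, which left 8350 genes. A gene was called where its difference passed limma's moderated test at an adjusted p of 0.05 (Benjamini-Hochberg over the 8350 genes) and was at least 2-fold. A change was taken to hold in both combinations where it was called the same way in magn as 1 group and in each combination against WT. Over all probe sets other than controls, arrays of the same genotype correlated at 0.9835 to 0.9956. The magn combinations correlated with each other at 0.982 to 0.9848, and magn with WT at 0.9364 to 0.9584.

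Ubi-p63E itself was close to the bottom of the scale in magn testes. Its level was 3.93 and 5.47 in the [12c]/[23b] testes and 3.88 and 3.59 in the pSC2 testes, against 14.75, 14.65 and 14.90 in WT testes. The groups lay far apart in both combinations. The difference was -10.55 ± 0.32 (log2, SE, limma adjusted p = 6.59e-11), the largest of any gene by this measure, and magn was lower by a similar amount than aly (-10.49 ± 0.32) and sa (-9.45 ± 0.32) testes. The ebony gene e, 1 of the markers in the WT genotype, had 2.26 to 2.66 in magn testes, against 4.58, 3.75 and 4.00 in WT testes, so it fell under the filter and was not tested.

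The other ubiquitin genes did not fall. Ubi-p5E, the second polyubiquitin gene, had 12.94 and 12.84 in the [12c]/[23b] testes and 13.12 and 13.09 in the pSC2 testes, against 12.15, 11.41 and 12.07 in WT testes. All magn arrays lay above all WT arrays, and the difference was 1.12 ± 0.16 (limma adjusted p = 4.88e-05). RpS27A differed by 1.17 ± 0.11 and RpL40 by 1.23 ± 0.14, and all 3 rises held in both combinations. When each array was instead centred on its ribosomal protein genes, the differences of Ubi-p5E, RpS27A and RpL40 were 0.10, 0.16 and 0.22 and none was called. Without the first [12c]/[23b] array none of the 3 rises held in both combinations, and without the third WT array 1 did. RpS27A and RpL40 are themselves ribosomal protein genes, so for these genes the rise is the rise of that class. The rises were not particular to magn. Ubi-p5E, RpS27A and RpL40 differed from WT by 1.2, 1.43 and 1.4 in aly testes and by 1.34, 1.44 and 1.64 in sa testes. None of the 3 was called between magn and aly or between magn and sa.

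**Figure D1:**
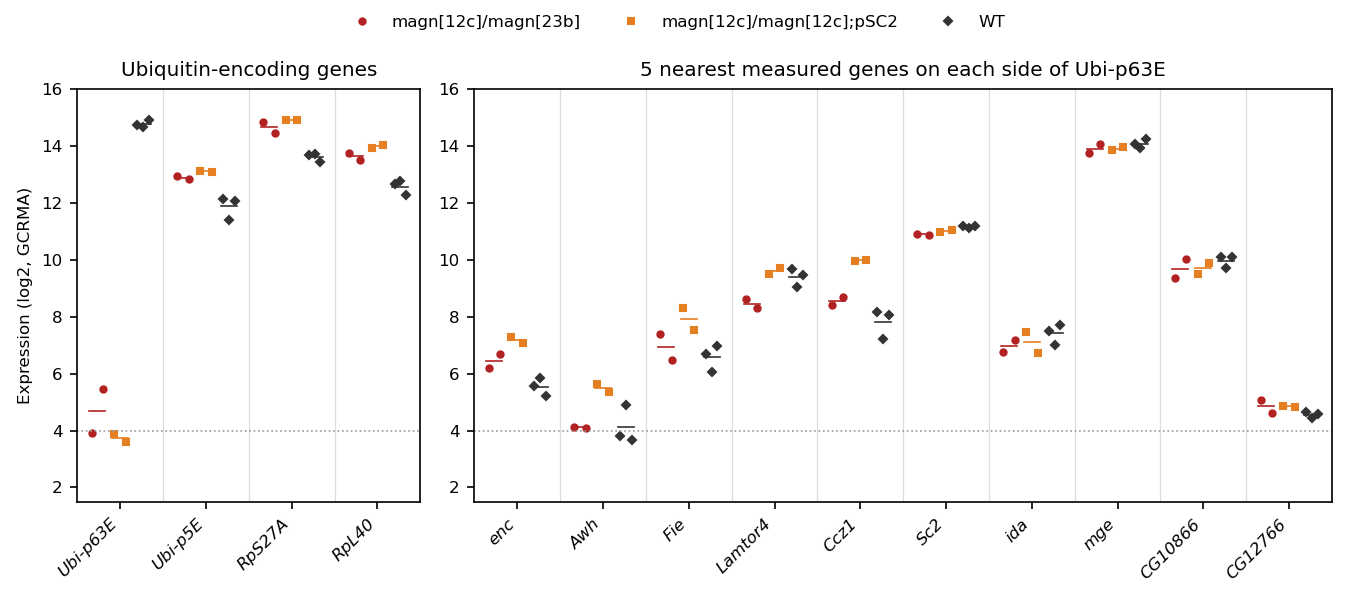
Expression (log2, GCRMA, vertical axis) of the ubiquitin-encoding genes (left) and of the 5 nearest measured genes on each side of Ubi-p63E, in chromosome order (right), for each array of the magn combinations and WT; points are arrays, short lines are group means and the dotted line is the filter at 4. Ubi-p63E lies at 3.59 to 5.47 in magn and 14.65 to 14.90 in WT, while none of its neighbours has a change that holds in both combinations.

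None of the 10 measured neighbours of Ubi-p63E had a change that held in both combinations, where 34.6% of all tested genes did. Sc2, the nearest measured gene on one side, had 10.92 and 10.87 in the [12c]/[23b] testes and 10.99 and 11.03 in the pSC2 testes, against 11.18, 11.13 and 11.19 in WT testes (difference -0.22 ± 0.10, limma adjusted p = 0.0616). Ccz1, which encodes an endosome trafficking factor and is nearest on the other side, differed from WT by 0.75 in the [12c]/[23b] testes and by 2.16 in the pSC2 testes. Ccz1 was 1 of 3 neighbours that differed between the combinations, with Lamtor4 (-0.94 and 0.23) and Awh (-0.01 and 1.38), all 3 higher in the pSC2 testes and all on the same side of Ubi-p63E.

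Over all tested genes, 2507 (30.0%) were called higher and 1228 (14.7%) lower in magn than in WT testes. In both combinations 1971 (23.6%) were higher and 922 (11.0%) lower, so 68.1% of these calls were rises. That split depended on how the arrays were scaled. After quantile normalization 15.8% of genes were higher and 13.1% lower in both combinations, and rises made up 54.7% of the calls. After centring on all tested genes the shares were 14.7% and 15.1%, and rises made up 49.4%. After centring on ribosomal protein genes, which lowered every difference by 1.02, the shares were 5.52% and 29.2%, and rises made up 15.9%. The median difference over all genes was 0.41 as deposited, and 0.16, 0.08 and -0.61 under those scalings. The 18S ribosomal RNA controls moved with genotype as well: the middle one lay at 10.31 to 12.75 in magn arrays, against 7.36 to 7.79 in WT arrays, and its part in the split was not tested. Calls that held in both combinations under the deposited values and all 3 other scalings numbered 461 rises (5.52%) and 884 falls (10.6%). The counts of list members below are given as a share of the list, to be read against the 23.6% higher and 11.0% lower of all tested genes, and the counts of rises also after centring on ribosomal protein genes (ribosomal centring), to be read against 5.52% and 29.2%. In whole testes, fewer cells of a type and less RNA per cell cannot be told apart.

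Falls outnumbered rises at a cut of 16-fold but not at 4-fold. With values under 4 raised to 4, 120 genes (1.44%) that held in both combinations fell at least 16-fold, and 33 (0.395%) rose at least 16-fold. At 4-fold, with values not raised, 485 genes were higher and 358 lower in both combinations. The pSC2 testes had the larger falls: the 922 lower genes had a median difference from WT of -1.79 in the [12c]/[23b] testes and -2.72 in the pSC2 testes, and -1.72 and -2.61 with values under 4 raised to 4. Of these genes 373 differed between the combinations by the direct test, and 367 of the 373 were lower in the pSC2 testes. Over all tested genes 10.3% differed, 8.16% being higher in the [12c]/[23b] and 2.11% higher in the pSC2 testes. The 1971 higher genes had medians of 1.60 and 1.88, and of the 92 that differed 45 were higher in the [12c]/[23b] and 47 in the pSC2 testes.

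**Figure D2:**
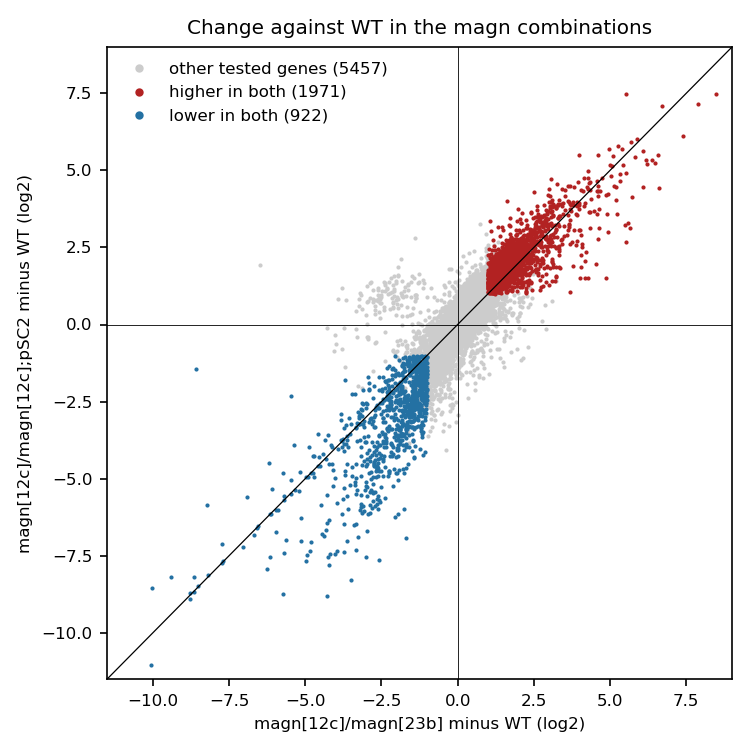
Difference from WT (log2) of each of the 8350 tested genes in magn[12c]/magn[23b] (horizontal axis) and magn[12c]/magn[12c];pSC2 testes (vertical axis); red points are higher and blue points lower in both combinations, and the diagonal marks equal differences. Most blue points lie under the diagonal, as 367 of the 373 lower genes that differed between the combinations were lower in the pSC2 testes.

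The largest falls and rises were picked only among genes that held in both combinations and whose magn arrays did not overlap the WT arrays. After Ubi-p63E, the falls with the largest size among genes with a name were fipi, RpS28a, scpr-C, robl37BC, Liprin-gamma, Acyp, neo, Adgf-E, shps, Naa20B and ND-51L2. fipi, an immunoglobulin-family gene known for a role in courtship song, had 4.53 and 4.80 in the [12c]/[23b] testes and 3.37 and 3.18 in the pSC2 testes, against 11.05, 10.50 and 10.90 in WT testes (difference -6.84 ± 0.37, limma adjusted p = 8.47e-09). RpS28a, a paralog of the ribosomal protein gene RpS28, had 4.76, 5.63, 2.75 and 4.23 in magn testes, against 11.23, 10.61 and 10.87 in WT testes (-6.56 ± 0.52, adjusted p = 2.35e-07). robl37BC, which encodes a dynein light chain of the roadblock family, differed between the combinations. It had 7.85 and 7.74 in the [12c]/[23b] testes and 3.45 and 3.17 in the pSC2 testes, against 12.42, 11.74 and 12.13 in WT testes.

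Acyp, an acylphosphatase gene, showed the same order, with 9.97 and 9.86 in the [12c]/[23b] testes and 5.24 and 5.56 in the pSC2 testes, against 13.16, 12.79 and 12.85 in WT testes. shps, of the list of Cul3 ligase and spermatid caspase genes, had 8.39 and 9.20 in the [12c]/[23b] testes and 4.17 and 3.26 in the pSC2 testes, against 11.39, 11.09 and 11.63 in WT testes. Not every large fall differed: neo had 3.46 to 4.06 in the 4 magn arrays, against 8.78 to 9.49 in WT arrays, and Adgf-E, of the adenosine deaminase growth factor family, had 5.90 to 6.79 in magn, against 10.96 to 11.69 in WT. scpr-C, of the secreted CAP protein family, went the other way between combinations and was lower in the [12c]/[23b] testes (5.68 and 4.74) than in the pSC2 testes (6.87 and 6.19), against 12.18, 11.76 and 12.40 in WT testes.

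The 3 largest falls among genes known only by a number were larger still than any of these except Ubi-p63E. CG12506 had 2.29 to 4.52 in magn, against 12.56 to 13.30 in WT, and CG42827 had 2.83 to 4.15, against 11.82 to 12.81. CG13947 had 2.69 to 2.78 in magn, all under the filter, against 11.31 to 11.64 in WT, which is at least 175-fold lower in magn. CG12506 and CG42827 were also lower in magn than in aly testes, by 5.34 and 2.69 on the log2 scale (limma adjusted p = 7.95e-07 and 0.000132), and CG13947 was at least 12.9-fold lower (adjusted p = 2.09e-08).

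The largest rises among genes with a name were RpL22-like, CCHa1, RabX2, IFT52, babos, Mo25, Mp, Ect3, Lrrk, shams, chm and prt. All 12, picked as holding in both combinations on the deposited scale, also did so under the other scalings. RpL22-like, a testis-enriched paralog of the ribosomal protein gene RpL22, had 12.60, 12.36, 12.81 and 12.90 in magn testes, against 6.02, 5.71 and 5.57 in WT testes (difference 6.90 ± 0.21, limma adjusted p = 6.59e-11). CCHa1, which encodes a peptide hormone, had 10.59, 11.17, 9.97 and 10.34 in magn testes, against 2.22, 2.78 and 4.02 in WT testes (7.51 ± 0.38, adjusted p = 4.82e-09). Its WT values of 2.22 and 2.78 lie under the filter at 4, so 7.51 is a fitted value and the size is not measured. No magn array overlapped a WT array for RpL22-like or CCHa1, as the choice of genes required.

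RabX2, of the Rab GTPase family, had 11.05 and 11.05 in the [12c]/[23b] testes and 9.73 and 9.83 in the pSC2 testes, against 3.22, 3.60 and 4.18 in WT testes. IFT52, a subunit of the intraflagellar transport complex that builds cilia, had 9.77, 10.37, 8.83 and 9.23 in magn testes, against 3.62 to 3.78 in WT testes, at least 46.8-fold higher. Mo25, a scaffold for STE20-family kinases, was at least 28.2-fold and Ect3, a beta-galactosidase gene, at least 25.5-fold higher, since their WT arrays all lay under 4. Lrrk, the fly ortholog of a kinase gene linked to Parkinson disease, had 7.58 to 9.23 in magn, against 3.21 to 4.05 in WT. chm, which encodes a histone acetyltransferase, had 9.09 to 9.75, against 4.42 to 5.29. Of the numbered genes, CG13405 had 9.54 to 10.69 in magn and stood at the scale's lowest value, 2.10, in every WT array.

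**Figure D3:**
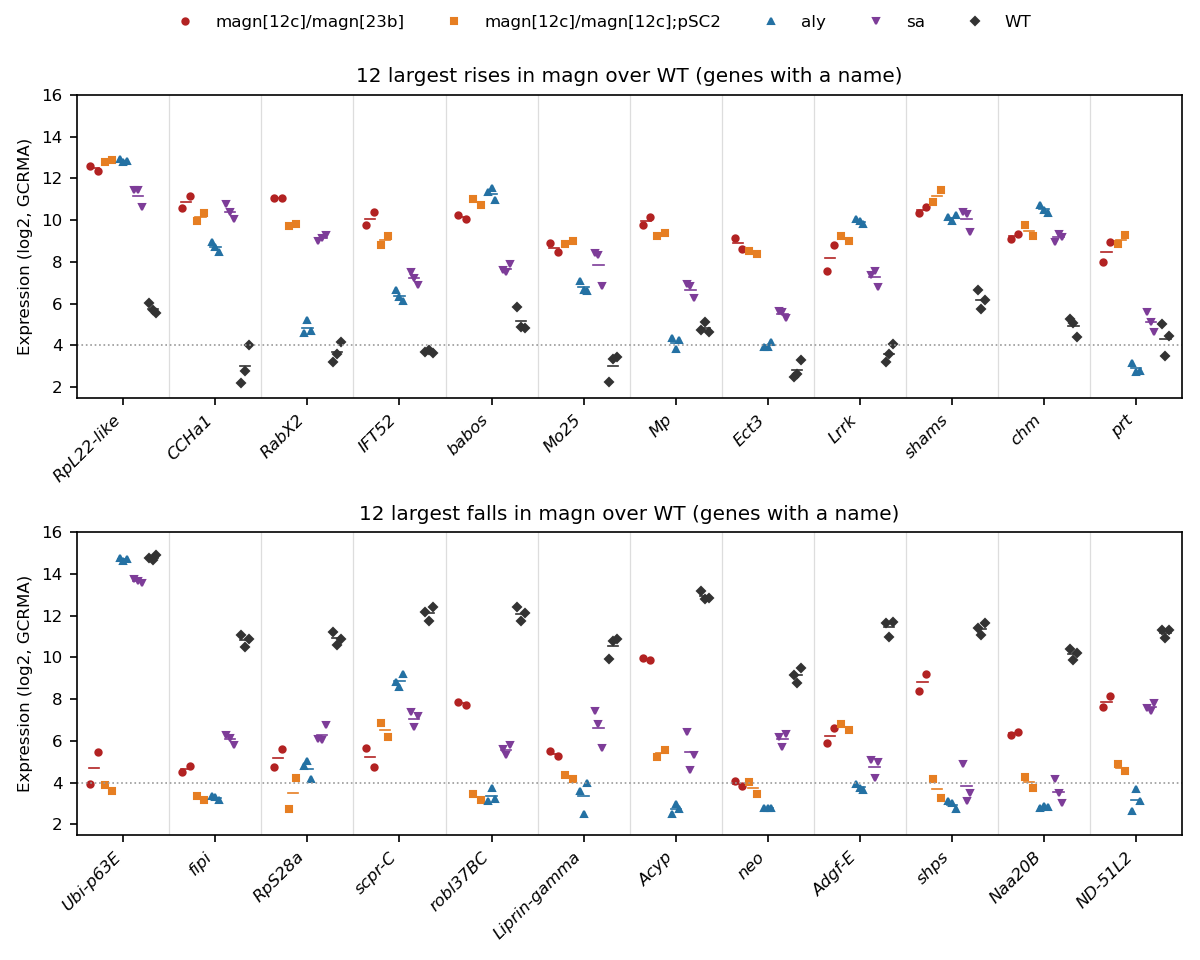
Expression (log2, GCRMA, vertical axis) of the 12 largest rises (top) and 12 largest falls (bottom) in magn over WT among genes with a name, for each array of the magn combinations, aly, sa and WT; points are arrays, short lines are group means and the dotted line is the filter at 4. The genes were chosen so that no magn array overlaps a WT array. robl37BC, Acyp and shps are lower in the pSC2 than in the [12c]/[23b] testes.

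Genes used in late spermatogenesis split into groups with little change and groups that fell. None of the 16 tested spermatid genes of the Mst and don juan list held in both combinations in either direction, against 23.6% higher and 11.0% lower of all tested genes, and their median difference was -0.23. dj, which encodes a sperm tail protein, had 11.04 and 10.56 in the [12c]/[23b] testes and 10.42 and 10.01 in the pSC2 testes, against 9.38, 9.85 and 9.66 in WT testes (0.88 ± 0.39, limma adjusted p = 0.0632). Mst89B had 12.60, 12.53, 11.90 and 11.92, against 12.71, 12.91 and 12.99 (-0.64 ± 0.21, adjusted p = 0.0161, under 2-fold). After centring on ribosomal protein genes, 7 of the 16 were lower in both combinations.

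Of 9 sperm chromatin genes, whose products replace histones in the sperm nucleus, Tpl94D and ddbt (22.2%) fell in both combinations and none rose (median -0.56). Tpl94D, a transition-protein-like gene, had 11.51, 11.83, 11.94 and 11.44 in magn testes, against 13.33, 13.38 and 13.49 in WT testes (-1.72 ± 0.20, limma adjusted p = 6.63e-06). ddbt, a gene needed for paternal telomeres, differed by -1.28 in the [12c]/[23b] and -2.71 in the pSC2 testes. ProtB, a protamine gene, had 13.04, 12.89, 12.58 and 12.17, against 13.56, 13.07 and 13.54 (-0.72 ± 0.30, adjusted p = 0.047), and was not called.

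The axoneme list, which holds dyneins, tektins and other parts of the sperm tail, fell further. Of 18 tested members 9 (50%, against 11.0% of all tested genes) fell in both combinations and none rose, with a median of -1.96. Dhc16F, a dynein heavy chain gene, had 6.77, 7.97, 6.50 and 6.16 in magn testes, against 9.76, 10.22 and 9.83 in WT testes (-3.09 ± 0.35, limma adjusted p = 5.70e-06). Dhc36C differed by -2.46 in the [12c]/[23b] and -4.91 in the pSC2 testes, and ORY, a Y-linked fertility gene, by -2.55 in the [12c]/[23b] testes. Both pSC2 arrays lay under 4 for ORY (3.25 and 2.60), which makes it at least 25.7-fold lower there. With 1 array left out at a time, 9 to 11 members fell in both.

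Of 16 testis-specific paralogs of respiratory chain subunits, 9 (56.2%) fell in both combinations and none rose (median -1.33). COX6AL, a paralog of a cytochrome c oxidase subunit, had 10.61 and 10.51 in the [12c]/[23b] testes and 8.71 and 8.65 in the pSC2 testes, against 13.44, 12.82 and 13.27 in WT testes (-3.56 ± 0.45, limma adjusted p = 1.37e-05). ND-51L2, a paralog of a complex I subunit, differed by -3.32 in the [12c]/[23b] and -6.47 in the pSC2 testes. The count was 5 after quantile normalization or without the first [12c]/[23b] array, and 11 after either centring. The general respiratory chain subunits, 52 genes, had a median of 0.43, with ATPsynC, ATPsynD and ATPsynO higher (5.77%, none after ribosomal centring) and COX7C and ND-B8 lower in both combinations (3.85%). Without the second [12c]/[23b] array 7 were higher and 1 lower, and without the first WT array 6 were higher and none lower; without the third WT array 1 was lower. For COX7C, a second probe set had a difference of only 0.18.

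Comet and cup genes are unusual in being transcribed in elongating spermatids, with RNA held at the distal end of the cell. Of the 15 tested, d-cup, h-cup, t-cup, schuy, sunz and hale (40.0%) fell in both combinations and cutlet rose (median -1.12). t-cup had 10.18 and 10.32 in the [12c]/[23b] testes and 8.32 and 7.98 in the pSC2 testes, against 12.37, 12.46 and 12.25 in WT testes (-3.16 ± 0.63, limma adjusted p = 0.000609). cutlet, which belongs to the list by its name and encodes a clamp-loader-like ATPase, differed by 2.59 ± 0.29 and rose after ribosomal centring too. In mitochondrial import and fusion, 3 of 18 genes (16.7%) fell in both and none rose: the testis import receptor paralogs tomboy40 (-1.78 ± 0.23) and tomboy20 (-1.62 ± 0.25) and the mitophagy kinase gene Pink1 (-1.43 ± 0.16). Of 5 sperm leucyl aminopeptidases, S-Lap5 fell (-1.82 ± 0.25), while S-Lap2 and S-Lap7, among the brightest genes on the array at 13.94 to 14.79 in magn against 14.39 to 15.03 in WT, differed by less than 2-fold.

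**Figure D4:**
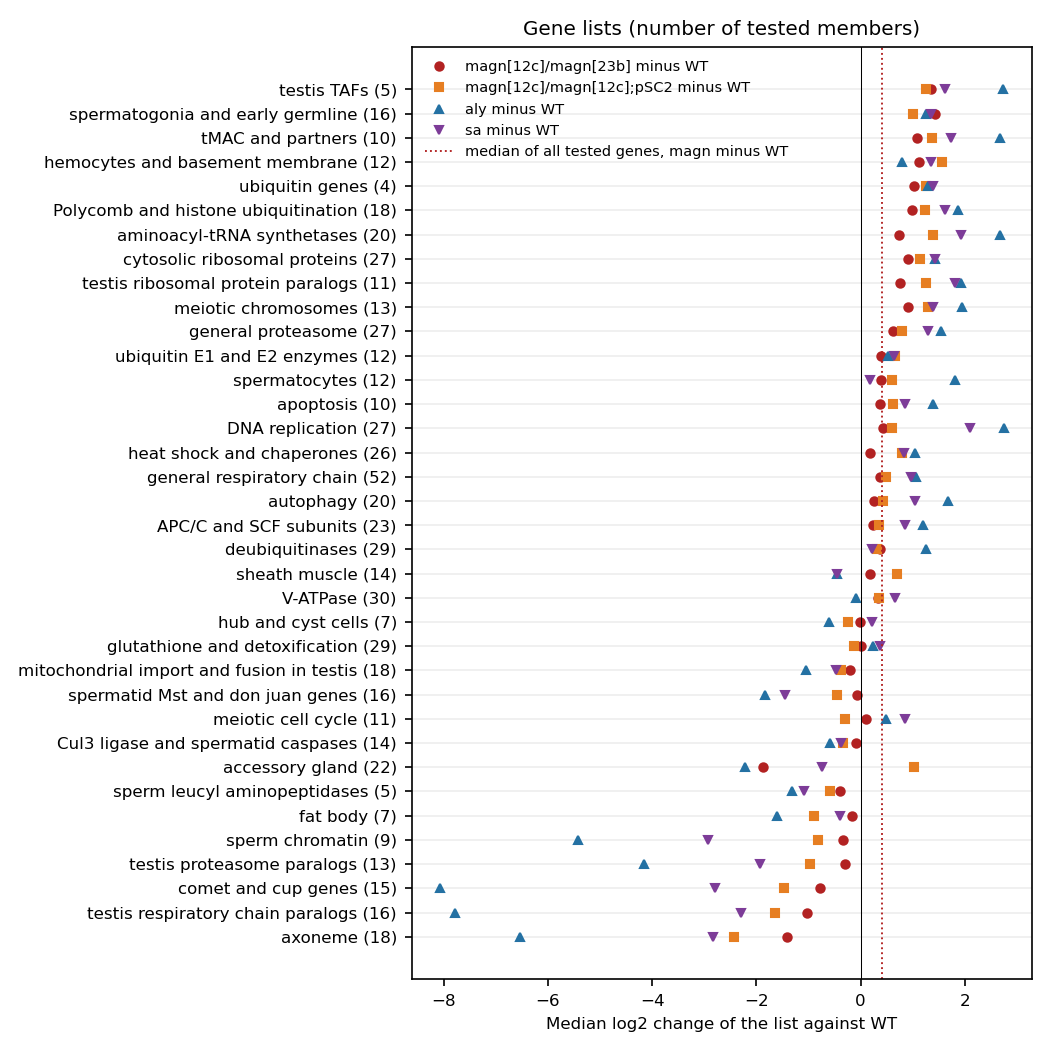
Median difference from WT (log2, horizontal axis) of the tested members of each of the 36 gene lists, in magn[12c]/magn[23b], magn[12c]/magn[12c];pSC2, aly and sa testes; the number of tested members is in brackets and the dotted line is the median of all tested genes in magn, 0.41. With magn as 1 group, the axoneme, testis respiratory chain, comet and cup, and testis proteasome lists have the lowest medians. In the [12c]/[23b] testes alone the accessory gland list lies lowest, at -1.88, and in the pSC2 testes it lies at 1.03.

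Regulators of the meiotic divisions changed little on the deposited scale. Of 11 tested genes only Cks85A, a cyclin-dependent kinase subunit, held in both combinations (1.34 ± 0.17, limma adjusted p = 1.26e-05), and it differed by 0.32 and was not called after ribosomal centring. twe, the Cdc25 phosphatase of male meiosis, had 7.34, 7.44, 6.77 and 6.77 in magn testes, against 7.24, 7.15 and 7.54 in WT testes (-0.23 ± 0.25, adjusted p = 0.435). bol, whose RNA-binding protein is needed for twe translation, had 12.36, 12.98, 12.76 and 12.71, against 12.87, 13.35 and 13.22 (-0.45 ± 0.32, adjusted p = 0.233). CycB, the mitotic cyclin B gene, had 8.03 and 8.39 in the [12c]/[23b] testes and 6.98 and 6.22 in the pSC2 testes, against 7.71, 7.41 and 8.0 in WT testes. Its WT arrays lay between the combinations, which differed from each other by 1.61 ± 0.35 (adjusted p = 0.00686). After centring on ribosomal protein genes the differences of twe, bol and CycB from WT were -1.25, -1.46 and -1.32. On that scale 3 of the 11 genes, bol among them, were lower in both combinations, where 29.2% of all tested genes were. twe and CycB were not.

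The RNAs of the complexes that drive the spermatocyte program were higher on the deposited scale. Of the 5 testis TAFs 4 (80.0%, against 23.6% of all tested genes) rose in both combinations. They were sa (1.39 ± 0.15), nht (1.65 ± 0.14), Taf12L (1.51 ± 0.13) and mia (1.14 ± 0.14), and can (0.32 ± 0.22) was not called. Of 10 tMAC genes and partners 7 rose and none fell, among them tomb (1.73 ± 0.28), comr (1.26 ± 0.26), wuc (1.35 ± 0.22) and vis. vis, which encodes a homeodomain partner of tMAC, had 11.03 and 11.04 in the [12c]/[23b] testes and 12.78 and 13.16 in the pSC2 testes, against 9.95, 9.61 and 10.22 in WT testes. aly was 0.58 ± 0.29 higher (limma adjusted p = 0.0953) and topi was 0.53 ± 0.14 lower, both not called. Centred on ribosomal protein genes, none of the testis TAFs or tMAC genes rose in both combinations, and without the second WT array 3 of the 10 tMAC genes did. These rises were not particular to magn. The testis TAFs had a median difference from WT of 1.39 in magn, 2.74 in aly and 1.62 in sa testes, and the tMAC list 1.31, 2.68 and 1.73. The sa median of the testis TAFs includes the mutated gene sa itself (-4.92). Levels were lower in magn than in aly for 4 of the 5 testis TAFs and 7 of the 10 tMAC genes, where 32.0% of all tested genes were.

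Of 27 DNA replication genes 8 (29.6%) rose, 5 without the second WT array, and 4 (14.8%) fell in both combinations (median 0.50), shares not far from those of all tested genes (23.6% and 11.0%). After ribosomal centring 1, RfC3, rose and 8 fell. Psf1, a subunit of the GINS complex that travels with the replicative helicase, had 4.13, 4.15, 4.15 and 4.05 in magn testes, against 7.55, 7.43 and 7.41 in WT testes (-3.34 ± 0.20, limma adjusted p = 2.00e-08). PolE1, the catalytic subunit of DNA polymerase epsilon, had 3.88, 4.93, 5.05 and 4.83, against 7.49, 7.40 and 7.67 (-2.85 ± 0.28, adjusted p = 1.83e-06). RfC3, of the clamp loader, had 9.62, 9.48, 9.84 and 9.72, against 7.23, 5.39 and 6.85 (3.17 ± 0.33, adjusted p = 2.43e-06). Orc4 and Prim2, named after their values were seen, were the other 2 that fell, by 1.75 and 1.76. Among genes of meiotic chromosomes, 6 of 13 (46.2%) rose, with ord, a sister chromatid cohesion gene, at 2.89 ± 0.22 and the cohesin gene SMC3 at 2.54 ± 0.30, and 1 fell, the condensin gene Cap-G, at 4.79 to 6.39 in magn against 9.62 to 10.28 in WT (-4.28 ± 0.35). After ribosomal centring ord and SMC3 still rose and 3 of the 13 fell.

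Of 27 general proteasome subunits 6 (22.2%) rose in both combinations, a share close to the 23.6% of all tested genes, and none fell (median 0.65, against 0.41 over all genes). Prosbeta2 had 12.96 and 12.82 in the [12c]/[23b] testes and 13.68 and 13.60 in the pSC2 testes, against 11.34, 11.19 and 11.25 in WT testes (2.01 ± 0.19, limma adjusted p = 9.96e-07). Prosalpha6 differed by 1.69 ± 0.23 and Prosbeta4 by 1.62 ± 0.16. After ribosomal centring no subunit rose and 1 fell, and the median was -0.37. Without the second WT array 3 of the 27 rose.

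Of 13 testis-specific proteasome paralogs, Prosalpha3T and Prosalpha4T2 (15.4%, against 11.0% of all tested genes) fell and Prosbeta4R2 was called higher in both combinations (median -0.62). After ribosomal centring none rose and 7 fell. Prosbeta4R2 was dim, with a mean of 4.76 in magn testes and 2.64 in WT testes. It passed the filter through magn arrays only, so the size of its rise is not measured. Prosalpha3T had 9.43 and 9.88 in the [12c]/[23b] testes and 7.07 and 6.64 in the pSC2 testes, against 11.05, 10.57 and 11.04 in WT testes (-2.63 ± 0.62, limma adjusted p = 0.00201). Prosalpha6T, a testis-specific core subunit, differed by -0.90 in the [12c]/[23b] and -2.01 in the pSC2 testes and so did not hold in both.

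Roc1b, a RING subunit that is needed with Cul3 for caspase activation in spermatids, had 10.44 and 10.49 in the [12c]/[23b] testes and 8.63 and 8.32 in the pSC2 testes, against 13.12, 13.11 and 13.07 in WT testes (-3.63 ± 0.45, limma adjusted p = 1.17e-05). SkpF, of the Skp1 family, had 9.47 to 10.63 in magn, against 12.79 to 13.30 in WT (-2.99 ± 0.25). Of 23 subunits of the anaphase-promoting complex and SCF ligases 5 (21.7%, against 23.6% of all tested genes) rose, among them APC4 (2.32 ± 0.27) and Cdc16 (2.02 ± 0.26), and 3 (13%, against 11.0%) fell, Roc1b, SkpF and fzr2. Without the second WT array 3 rose, and after ribosomal centring 1, APC4, rose and 6 fell. Of 14 genes of the Cul3 ligase and the spermatid caspase pathway 5 (35.7%) rose, among them the caspase genes Dronc (1.87 ± 0.26) and Dcp-1 (2.08 ± 0.32), and shps fell. Without the second WT array 2 of the 14 fell. The direction turned with the scaling: after ribosomal centring none of the 14 rose and 6 fell.

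Of 29 deubiquitinases, enzymes that release ubiquitin, 8 (27.6%, against 23.6% of all tested genes) rose and none fell (median 0.34, against 0.41 over all genes). After ribosomal centring 1 rose and 11 fell. Usp39, a splicing factor of this family, had 11.37, 11.25, 11.69 and 11.69 in magn testes, against 8.94, 8.47 and 8.72 in WT testes (2.80 ± 0.18, limma adjusted p = 3.25e-08), and it was the one that rose under every scaling. CSN5, which removes the ubiquitin-like Nedd8, differed by 1.92 ± 0.17. faf differed by 1.93 ± 0.22, with other probe sets of that gene at 2.30 and 0.54. Of 12 activating and conjugating enzymes 4 (33.3%) rose, the SUMO activating subunits Uba2 (1.81 ± 0.25) and Aos1 (1.21 ± 0.17), Uev1A (1.78 ± 0.16) and morgue (1.47 ± 0.16). After ribosomal centring none of the 12 rose and 3 fell. Of 18 genes of Polycomb complexes and histone ubiquitination 8 (44.4%) rose and none fell (median 1.12). They included Ada2b (2.18 ± 0.17), Su(z)12 (1.82 ± 0.21) and Sce (1.80 ± 0.22), the ligase for histone H2A. After ribosomal centring 1 of the 8, Ada2b, still rose in both and 1 of the 18 fell.

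Of 27 cytosolic ribosomal protein genes 11 (40.7%, against 23.6% of all tested genes) rose (median 1.02), a count that was 3 without the first and 17 without the second [12c]/[23b] array, and 4 without the third WT array. Of 11 testis ribosomal protein paralogs 4 (36.4%) rose, RpL22-like, RpL37-2, RpL7-like and RpS5b, and 3 (27.3%) fell, RpS28a, RpS28-like and RpL10Aa. After ribosomal centring RpL22-like and RpL37-2 still rose and 3 fell. Of 20 aminoacyl-tRNA synthetases 5 (25.0%) rose (median 1.07), led by the mitochondrial MetRS-m with 7.90 to 8.57 in magn against 4.38 to 4.66 in WT, which was also the only one to rise after ribosomal centring, where 2 fell. Of 30 V-ATPase subunits, the proton pump of acidic organelles, 4 (13.3%) rose and 5 (16.7%) fell, and after ribosomal centring none rose and 11 fell. The 5 were Vha16-2 (-2.83 ± 0.54), Vha36-2 (-2.67 ± 0.47), Vha16-4 (-2.62 ± 0.53), VhaM9.7-d (-2.54 ± 0.40) and Vha36-3. Of 26 chaperones 6 (23.1%, against 23.6% of all tested genes) rose, including the chaperonin subunits CCT8 (1.70 ± 0.21) and CCT3 (1.64 ± 0.23), and 3 (11.5%, against 11.0%) fell, Hsc70-1 (-3.59 ± 0.41), Hsp60D (-1.90 ± 0.38) and Hsp60B (-1.63 ± 0.22), of which 1 held without the first [12c]/[23b] array. After ribosomal centring no chaperone rose and 7 fell.

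Of 20 autophagy genes 3 (15%) rose and the germline paralog Atg8b fell (-2.11 ± 0.32), and none rose and 4 fell after ribosomal centring. Of 10 apoptosis genes 4 (40.0%) rose and Debcl fell (-1.53 ± 0.17), without the second WT array 2 fell, and after ribosomal centring none rose and 3 fell. Of 29 glutathione and detoxification genes 3 (10.3%) rose and 4 (13.8%) fell, and after ribosomal centring 1 rose and 12 fell. The largest was GstE10, with 3.56 to 4.22 in magn against 7.99 to 8.39 in WT (-4.31 ± 0.28).

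Markers of other cells were read beside these results. In the early germline list, 6 of 16 tested genes (37.5%, against 23.6% of all tested genes) rose and 2 (12.5%, against 11.0%) fell, 1 without the second pSC2 array (median 1.35). bam, the switch from proliferation to the spermatocyte program, had 8.04, 7.07, 7.66 and 6.65 in magn testes, against 5.32, 4.40 and 5.77 in WT testes (2.19 ± 0.35), and aub, of the piRNA pathway, differed by 2.12 ± 0.20. esg, a stem cell and hub transcription factor gene, stood at 2.41 to 2.42 in magn, against 7.07, 7.14 and 7.80 in WT, at least 10.1-fold lower, and the defining germline markers vas, Rbfox1, orb, ovo and otu did not pass the filter. After ribosomal centring none of the early germline genes rose and 3 fell. Of 12 spermatocyte genes 2 (16.7%) rose, neither of them after ribosomal centring, Rbp4 (1.85 ± 0.19) and mod(mdg4), whose probe sets ran from -2.19 to 2.23, and Hsp60B fell, a call lost without the first [12c]/[23b] array.

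Of the 12 tested hemocyte and basement membrane genes 7 (58.3%) rose and srp fell, and Hml, LanA, Ppn and Pxn rose under every scaling. The fall of srp did not hold in both combinations when any array other than the first WT array was left out. Hml, the hemocyte gene hemolectin, had 7.63, 7.74, 7.71 and 7.53 in magn testes, against 4.06, 3.62 and 3.67 in WT testes (3.87 ± 0.26, limma adjusted p = 6.06e-08). The WT values of 3.62 and 3.67 lie under the filter at 4, so the size of the Hml rise is a fitted value. LanA, a laminin subunit of basement membranes, had 8.34 to 9.51 in magn, against 4.99 to 6.74 in WT. The median level of the list was 7.81 to 8.48 in magn, against 6.05 to 6.88 in WT, while the hemocyte markers NimC1, PPO3 and eater did not pass the filter. Of 14 sheath muscle genes bt rose and Act87E fell. Without the second WT array 4 rose, and without any other array, or after ribosomal centring, none did. The list's median level was 8.42 to 9.20 in magn, against 7.50 to 9.10 in WT. Of 7 hub and cyst cell genes dlg1 rose (1.93 ± 0.44) and sine oculis (so) fell (-2.19 ± 0.24), and tj, upd1, zfh1, ptc and Nrt did not pass the filter. The rise of dlg1 was lost without the first [12c]/[23b] array, and 2 genes fell without the second WT array. Of 7 fat body genes Apoltp and mdy rose and Lsp2 and Fbp1 fell, but with 1 array left out these counts were as low as 1 each. After ribosomal centring no hub, cyst or fat body gene rose. The part of such cells in the results above was not tested.

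Accessory gland genes, whose tissue was to be dissected away, varied between the magn combinations and between the WT arrays. Their median level over 22 genes was 9.31 and 9.06 in the [12c]/[23b] testes and 12.43 and 12.94 in the pSC2 testes, against 10.88, 13.69 and 9.76 in WT testes. None of the 22 held in both combinations, and 18 were higher in the pSC2 than in the [12c]/[23b] testes, where 2.11% of all tested genes were. Without the second WT array, the brightest for these genes, the list's median difference from WT was 0.49, against -0.47 with it. Acp53C14c, a seminal protein gene, had 6.52 and 6.81 in the [12c]/[23b] testes and 10.42 and 10.01 in the pSC2 testes, against 8.73, 12.13 and 7.42 in WT testes.

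Set directly against the meiotic arrest mutants, magn testes had higher levels of many spermatid genes than aly or sa testes. magn was higher than aly for 2237 genes (26.8%) and lower for 2670 (32.0%), and higher than sa for 1626 (19.5%) and lower for 1543 (18.5%). Of the 922 genes lower in both magn combinations than in WT, 491 were higher in magn than in aly and 180 lower, and 277 were higher in magn than in sa and 157 lower. The median difference from WT of the 922 was -2.25 in magn, -4.89 in aly and -2.91 in sa testes, 3 comparisons that share the WT arrays; with values under 4 raised to 4 the medians were -2.16, -4.32 and -2.82. Of the 16 Mst and don juan genes 9 were higher in magn than in aly and 8 than in sa. Of the 9 sperm chromatin genes 8 were higher in magn than in aly and 6 than in sa.

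Single genes show the order. dj averaged 10.51 in magn testes, against 2.42 in aly and 6.90 in sa testes, at least 91.0-fold higher than in aly and 3.61 ± 0.39 higher than in sa (limma adjusted p = 1.66e-10 and 4.58e-06). ProtB averaged 12.67 in magn, against 5.14 in aly and 8.24 in sa (7.53 ± 0.30 and 4.43 ± 0.30). bol was higher in magn than in aly (4.08 ± 0.32) and than in sa (1.04 ± 0.32). twe was higher in magn than in aly (1.59 ± 0.25) and did not differ by the test from sa (-0.22 ± 0.25, adjusted p = 0.456). CycB was higher than in aly (2.97 ± 0.43) and lower than in sa (-2.39 ± 0.43).

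Some of the genes that fell in magn stood nearer to sa, or lower than in it. COX6AL averaged 9.62 in magn, against 2.75 in aly and 9.90 in sa testes, and its difference from sa was -0.28 ± 0.45 (limma adjusted p = 0.606). Dhc16F averaged 6.85 in magn, against 3.12 in aly and 8.42 in sa, and was lower in magn than in sa (-1.57 ± 0.35, adjusted p = 0.0016). Some genes that were lower in both magn combinations than in WT lay far above aly testes, whose arrays were all under 4 for them: COX5BL was at least 294-fold, tomboy20 at least 285-fold, robl62A at least 279-fold, RpL10Aa at least 238-fold and COX6CL at least 139-fold higher in magn than in aly.

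**Figure D5:**
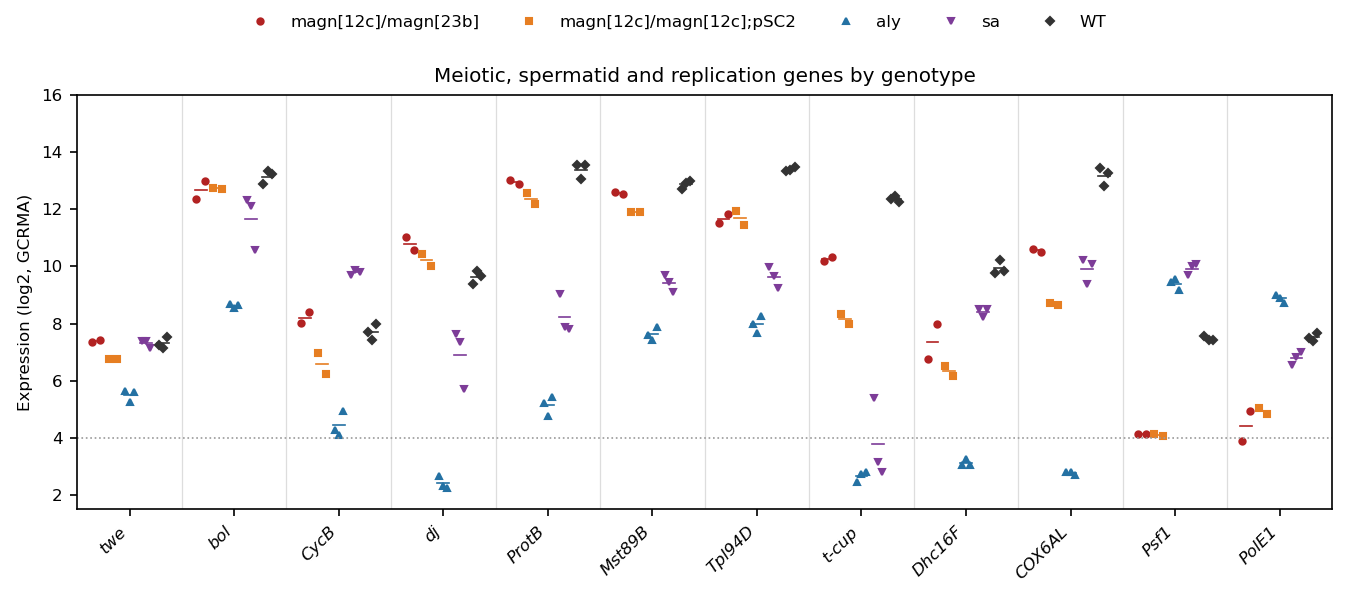
Expression (log2, GCRMA, vertical axis) of meiotic (twe, bol, CycB), spermatid (dj to COX6AL) and replication genes (Psf1, PolE1) in each array of the magn combinations, aly, sa and WT; points are arrays, short lines are group means and the dotted line is the filter at 4. dj, ProtB, Mst89B and Tpl94D lie above aly and sa in every magn array, while Psf1 lies at 4.05 to 4.15 in magn, below every other genotype.

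Some genes separated magn from all other genotypes. Psf1 was lower than in aly (-5.28 ± 0.20) and sa (-5.81 ± 0.20), and nSyb, a synaptic vesicle protein gene, had 2.38 to 2.87 in magn, against 7.93 to 8.29 in aly, 7.87 to 8.23 in sa and 6.14 to 7.09 in WT testes. Ir76a, of the ionotropic receptor family, had 3.37 to 3.67 in magn, against 9.29 to 9.46 in aly, 7.50 to 7.87 in sa and 4.96 to 5.99 in WT. Both were under the filter in all magn arrays. Of the 27 replication genes 24 were lower in magn than in aly (32.0% of all tested genes were) and 18 than in sa (18.5%), and none was higher. As a list they did not separate magn from WT. Against WT 8 rose and 4 fell in both magn combinations, while 23 were called higher than WT in aly and 20 in sa testes. Eig71Eg, one of a cluster of ecdysone-induced genes, had 7.71, 7.01, 8.29 and 7.46 in magn testes and stood at the lowest value of the scale, 2.10, in every aly, sa and WT array. Its rise over WT was at least 12.3-fold. Cyp4ad1, a cytochrome P450 gene, had 10.70 to 11.02 in magn, against 2.61 to 3.84 in aly, 4.90 to 6.08 in sa and 8.77 to 9.33 in WT testes.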

How the data were processed

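Whole-testis RNA was hybridized to Affymetrix arrays. The deposited values are log2 probe set intensities that the authors normalized with GCRMA, per the submitters' processing notes; its version is not given in the sources used here, and precision is set by how many arrays each group has. Of 18952 probe sets, 13647 carry 1 gene symbol, 402 several and 4720 none in the platform annotation. Groups came from the sample labels. The fit used limma 3.58.1 (lmFit, eBayes with an intensity trend) in R 4.3.3 over all 13 arrays in 4 groups, and in 5 groups for the magn combinations. For 113 genes that held in both combinations, 144 other probe sets existed, of which 90 were called the same way and 5 the opposite way.

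Genes named were those of the 36 lists with the largest changes (up to 4 a list), the 12 largest rises and falls and the 3 largest among numbered genes, fixed genes of meiosis, tMAC, testis TAFs and ubiquitin, neighbours of Ubi-p63E, and the 5 largest differences between combinations and from aly and sa; members of short counts were added. The comparison and the lists were chosen with earlier results of these data known. On simulated data, 90% of genes changed by 1.5 (log2) and 97% of those changed by 3 were called between magn and WT, 75% and 95% in both combinations, and 5 of 8150 unchanged genes. The changed genes were drawn only from genes bright in WT. The simulated noise was normal and independent, with no floor, no shift in scaling and the same change in both combinations. The rates therefore do not cover dim genes or the dependence on scaling. Alternatives covered scaling, filter, fold minimum, probe set, variance model, floor, arrays in the fit and leaving out each array.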

Additional observations from a re-analysis of the deposited data

Results flagged for a closer look

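For 46 named genes the magn combinations differed from each other by limma's direct contrast at an adjusted p of 0.05 and at least 2-fold; each value here is [12c]/[23b] minus pSC2 on the log2 scale. Most were genes that fell in magn and fell less in the [12c]/[23b] testes. Among the largest falls, the difference was 5.08 for shps, 4.52 for Acyp, 4.49 for robl37BC, 3.15 for ND-51L2, 2.35 for Naa20B, 1.71 for RpS28a and 1.38 for fipi. In the sperm tail it was 3.21 for ORY and 2.44 for Dhc36C. Among comet and cup genes it was 2.37 for d-cup, 2.10 for t-cup and 1.69 for h-cup. For proteasome and ligase paralogs it was 2.80 for Prosalpha3T, 1.99 for Roc1b, 1.54 for Prosbeta5R2 and 1.11 for Prosalpha6T. For mitochondrial paralogs it was 1.88 for COX6AL, 1.32 for UQCR-11L, 1.25 for ttm3 and 1.01 for UQCR-14L. V-ATPase paralogs gave 2.34 for Vha16-4, 2.27 for Vha16-2 and 1.70 for VhaM9.7-d. Further genes of this direction were Hsc70-1 (1.44), ddbt (1.43), RpS28-like (1.19), Cap-G (1.19), RpL10Aa (1.16) and Atg8b (1.15). Cell cycle genes were Cks30A (1.72) and CycB (1.61). Higher in the [12c]/[23b] testes were also cysu (3.24) and, among rises over WT, RabX2 (1.27) and IFT52 (1.04). The pSC2 arrays all lay under 4 for robl37BC, fipi and ORY, so their differences are fitted values, and as bounds these genes were at least 13.9-fold, 1.58-fold and 4.38-fold higher in the [12c]/[23b] testes.

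In the opposite direction, seminal protein and lectin genes had Sfp53D at -4.43, Sfp38D at -4.21, lectin-30A at -3.75, lectin-29Ca at -3.71 and Acp53C14c at -3.55. Both [12c]/[23b] arrays lay under 4 for Sfp38D, at least 6.99-fold lower there than in the pSC2 testes. The heat shock locus RNA lncRNA:alphagamma-element:CR32865 was at -4.07, vis at -1.93, Ccz1 at -1.42, Awh at -1.39, scpr-C at -1.32, Lamtor4 at -1.16 and IleRS at -1.03. The pSC2 arrays also had the higher accessory gland levels; its part in these differences was not tested.

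In 6 named genes 1 of the 4 magn arrays stood apart from the other 3 by Dixon's ratio, which chance gives in about 1 of 20 groups. These were the second [12c]/[23b] array for RpS27A (14.46) and RpS20 (14.21), the first [12c]/[23b] array for MetRS-m (7.90), the first pSC2 array for CG13947 (2.78), and the second pSC2 array for Psf1 (4.05) and Ir76a (3.67). All 6 gaps were smaller than the gene's difference from WT.

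Outside the genes, 747 probe sets without a gene symbol passed the filter, and 186 of them were higher and 60 lower than WT in both combinations. The share that rose was close to the 23.6% of all tested genes, and the share that fell was under their 11.0%. These probe sets were fitted on the deposited scale only.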

How the results depend on the processing

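Centred on ribosomal protein genes, 666 genes were higher and 2966 lower in magn than in WT, and 461 and 2439 in both combinations; centred on all tested genes, 1225 were higher in both. With no fold minimum 3008 were higher in both. At 4-fold, 712 were higher and 576 lower, and 485 and 358 in both. Between the combinations, genes higher in the pSC2 testes numbered 95 with ribosomal centring, 116 in a fit of 7 arrays, 490 with no fold minimum and 60 at 4-fold, and 194 were higher in the [12c]/[23b] testes at 4-fold. With 1 array left out, genes higher in the [12c]/[23b] testes ran between 392 (without the second pSC2 array) and 717, and genes higher in the pSC2 testes between 62 (without the second pSC2 array) and 269 (without the second WT array), with 75 without the first pSC2 array. Leaving out 1 array gave 2303 to 2610 higher and 1134 to 1327 lower genes against WT, and 1764 to 2053 and 816 to 985 in both. Against aly, 1001 genes were lower in magn at 4-fold. Against sa, 729 were higher at 4-fold, and 737 (ribosomal centring), 2938 (no fold minimum) and 286 (4-fold) were lower; these alternatives for aly and sa were added after seeing the data. With array weights the magn minus WT differences of Acp53C14c (1.71) and lectin-30A (1.80) turned positive. For Acp53C14c it was -0.98 without weights and not called. These are not the differences between the combinations given above. The cause of these shifts was not tested, except that a fold minimum changes a count by construction. With the replicate number as a block, 2516 genes were higher and 1201 lower, and 1992 and 915 in both. The labels do not say that replicate numbers pair arrays. Among the magn and WT arrays 5 of 6 same-numbered pairs deviated together at r above 0.1, and over all 13 arrays 7 of 23 did. The pairs are not separate pieces of evidence. Each magn combination has 2 arrays, so the pairs between the combinations share the same r (0.196) by construction. Of 201 named genes 90 had the same direction and call under all 22 alternatives. The separation of batch from genotype could not be assessed here: no batch is labelled.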

Other observations

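By chromosome of the reference annotation, the fourth chromosome had 17 of 39 genes higher in both combinations (43.6%, median difference 1.28), against 23.6% of all tested genes. Of the 4 tested genes that this annotation placed on the Y, 2 were lower in both, against 11.0% of all tested genes. The median difference of the 4 was -2.56. The 2 that fell, ORY and Ppr-Y, were already counted in the axoneme list. The axoneme genes kl-2 (-1.34) and kl-3 (-2.53) were tested but lay outside the 4, and neither held in both combinations. The 4 may therefore not be all tested Y genes. tfc, a gene higher in magn than in every other genotype on average, had 6.94, 6.94, 7.97 and 7.94 in magn, against 2.33 to 3.11 in aly, 2.29 to 2.35 in sa and 4.38 to 6.26 in WT testes. Sodq, a superoxide dismutase-related gene, had 3.30 to 3.85 in magn, against 8.64 to 9.15 in aly, 3.82 to 3.95 in sa and 4.84 to 5.32 in WT testes. Genes known only by a number made up 573 of the 922 lower and 701 of the 1971 higher genes in both combinations, and 3502 of the 8350 tested genes.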
